A study of Mus musculus with 24 samples.

Results

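A set of 10 genes of autophagy was followed through kidney cortex of aged mice: the transcription factors Tfeb and Tfe3, the initiation genes Ulk1 and Becn1, the conjugation genes Atg5 and Atg7, the ATG8 genes Map1lc3a, Map1lc3b and Gabarapl1, and the cargo receptor Sqstm1. They were chosen by symbol, and all 10 of 10 were found once each among 16921 genes. None of the 10 passed the test in any comparison of diet or genotype. The largest difference was in Gabarapl1, which averaged 489 ± 109 CPM in KO mice on low protein and 666 ± 105 CPM in wild type mice on low protein (SD, n = 6 each), and it missed the threshold with an adjusted p of 0.101 (edgeR).

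The mice were males on the C57BL6/J background, 22 months old, and had eaten their diet without restriction since 3 months of age. The groups were KO_LP (FGF21 KO, 5% casein), KO_NP (FGF21 KO, 20% casein), WT_LP (wild type, 5% casein) and WT_NP (wild type, 20% casein), with 6 libraries each and 1 library per mouse. FGF21 is a hormone that is made mainly in liver and rises when dietary protein is scarce. How the KO allele was made, and in which cells it acts, is not given in the sources used here, and Fgf21 itself was not analysed here, so the genotype rests on the labels. The libraries were Lexogen QuantSeq, which counts tags near the 3' end of transcripts, read forward over 50 bases, so values do not tell transcript isoforms apart.

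Macroautophagy encloses cell material in a double membrane that then fuses with a lysosome. The ULK1 kinase complex starts the process, the class III PI3 kinase complex around Beclin 1 (Becn1) marks the membrane, and the ubiquitin-like systems of ATG7 and ATG5 attach ATG8 proteins (LC3 and GABARAP families) to lipid. p62 (Sqstm1) binds ubiquitinated cargo and LC3 and is itself degraded with it. TFEB and TFE3 are basic helix-loop-helix factors that enter the nucleus when mTORC1 is inactive and bind E-boxes of autophagy and lysosome genes, the CLEAR network. In kidney, proximal tubule cells are known for their reliance on autophagy with age. Much of this control acts on proteins, by phosphorylation, lipidation and turnover, which messenger RNA levels do not show.

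The E-box that these factors bind has the core CACGTG, which reads the same on both strands. It was searched in the 250 bases before each RefSeq start (build GRCm38.p6), for the 8 members with a listed start, 11 starts in all. It occurred in 2 members, Atg5 and Atg7, and in 6.02% of all 32851 starts. The longer form TCACGTGA, which contains the core, was in no member's window and in 0.785% of all starts. The windows of Atg5 and Atg7 are shown because they hold the core, in capitals, and those of Sqstm1 and Gabarapl1 because the largest library and group differences below were in these genes. The core of Atg5 ended 8 bases before the start site and that of Atg7 126 bases before it. The windows are chr10:44268089-44268338 on the plus strand for Atg5, chr6:114670846-114671095 on the plus strand for Atg7, chr11:50210821-50211070 on the minus strand for Sqstm1 and chr6:129532942-129533191 on the plus strand for Gabarapl1. That of Atg7 lies inside the gene as GENCODE M21 draws it, which starts at base 114643097.
Atg5: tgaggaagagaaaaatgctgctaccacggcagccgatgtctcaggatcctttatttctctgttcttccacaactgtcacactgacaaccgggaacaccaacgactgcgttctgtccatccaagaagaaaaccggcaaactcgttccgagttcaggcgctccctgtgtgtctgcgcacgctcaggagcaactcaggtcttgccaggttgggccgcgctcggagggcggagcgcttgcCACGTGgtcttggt
Atg7: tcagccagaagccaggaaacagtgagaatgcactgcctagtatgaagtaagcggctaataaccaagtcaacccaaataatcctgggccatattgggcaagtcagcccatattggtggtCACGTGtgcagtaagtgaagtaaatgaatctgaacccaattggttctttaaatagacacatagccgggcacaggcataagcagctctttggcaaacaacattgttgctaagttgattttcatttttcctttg
Sqstm1: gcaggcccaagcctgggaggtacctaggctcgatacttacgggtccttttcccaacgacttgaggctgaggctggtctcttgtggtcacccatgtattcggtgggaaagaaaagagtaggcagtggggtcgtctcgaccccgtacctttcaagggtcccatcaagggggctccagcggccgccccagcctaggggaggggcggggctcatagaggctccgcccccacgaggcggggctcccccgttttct
Gabarapl1: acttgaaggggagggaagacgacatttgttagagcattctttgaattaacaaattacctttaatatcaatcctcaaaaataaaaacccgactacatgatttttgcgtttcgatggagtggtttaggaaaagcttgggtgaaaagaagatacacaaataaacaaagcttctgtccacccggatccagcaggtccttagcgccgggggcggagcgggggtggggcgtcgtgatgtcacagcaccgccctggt

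Library totals ran from 8.47 to 21.1 M counts (median 15.0 M), and their group medians were 12.4 M in KO_LP, 13.3 M in KO_NP, 16.5 M in WT_LP and 16.5 M in WT_NP. The smallest count of any member was 82, for Tfeb, so no member was near the detection limit. CPM here are counts per 1 M of the library total, scaled by TMM factors. All 13 proximal tubule markers were detected in every library. Their summed level ran from 4590 to 8320 CPM in KO_LP, 8946 to 10398 CPM in KO_NP, 6011 to 11216 CPM in WT_LP and 5976 to 9742 CPM in WT_NP. The summed level of 17 macrophage and dendritic cell markers, all above 0, ran from 1646 to 5227 CPM in KO_LP, 1136 to 1577 CPM in KO_NP, 1147 to 2885 CPM in WT_LP and 1167 to 3792 CPM in WT_NP. That of 15 lymphocyte and plasma cell markers ran from 1385 to 14702 CPM in KO_LP, 1369 to 2859 CPM in KO_NP, 343 to 2106 CPM in WT_LP and 892 to 11318 CPM in WT_NP, with at most 1 marker at 0 in a library. Libraries KO_LP 4, KO_LP 6 and WT_NP 1 stood apart in these sums: KO_LP 6 had the lowest proximal tubule sum of all 24, and KO_LP 4 and WT_NP 1 the highest macrophage sums. KO_LP 5 and WT_NP 1 had the highest lymphocyte and plasma cell sums, 14702 and 11318 CPM. By the mean log2 CPM of the same markers, KO_LP 4, with a sum of 3460 CPM, was as high. It was at 3.83, against 3.84 in KO_LP 5 and 3.73 in WT_NP 1. In whole tissue, fewer cells of a type and less RNA per cell cannot be told apart.

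KO_LP 6 also stood apart in the members themselves. It was the highest of all 24 libraries for 6 of the 10 genes, namely Tfe3, Sqstm1, Map1lc3a, Map1lc3b, Ulk1 and Atg7, and the lowest of all for Atg5. Its mean absolute deviation from the group means was 0.32 on the log2 scale, the largest of the 24, and the next was 0.22 in KO_LP 4. KO_LP 4 was the lowest of all for Sqstm1, Map1lc3a and Gabarapl1. The summed level of 6 adipocyte markers was 454 CPM in KO_LP 6, against 102 to 177 CPM in the other KO_LP libraries, and 2 of the 6 were at 0 in KO_LP 6. By the mean log2 CPM of these markers, KO_LP 6, at 1.56, was below WT_NP 5 (2.34), WT_NP 6 (2.28) and KO_NP 4 (1.81). The other KO_LP libraries were at 0.12 to 0.43 by that mean, and KO_LP 5 also had 2 of the 6 markers at 0. What sets KO_LP 6 apart was not tested, and results that rest on it are given with and without it.

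**Figure D1:**
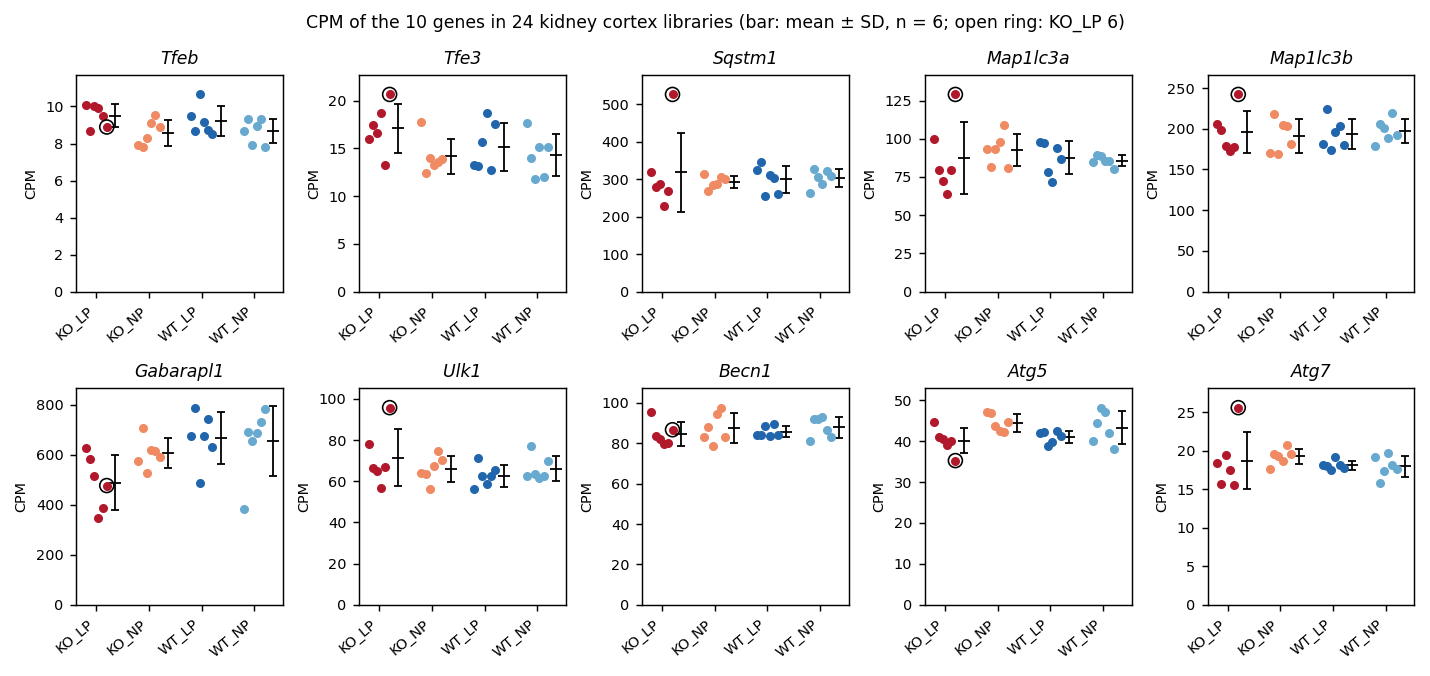
CPM of each of the 10 genes (vertical axes, starting at 0) in each library, by group, with the mean ± SD of 6 libraries beside the points and KO_LP 6 ringed. The groups overlap in every panel, Gabarapl1 averages 489 CPM in KO_LP against 606 to 666 CPM in the other groups, and the ringed library is the top point for 6 genes.

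**Figure D2:**
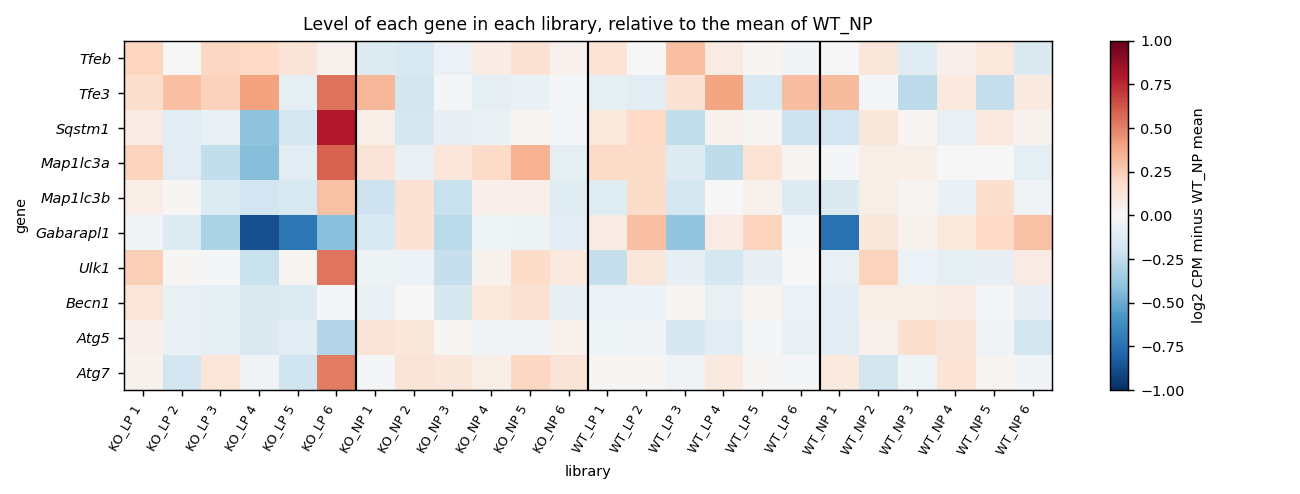
Log2 CPM of each gene (rows) in each of the 24 libraries (columns), minus the gene's mean in WT_NP, from blue (lower) to red (higher). Most cells are pale, and the strongest colours are KO_LP 6 for Sqstm1 (526 CPM) and KO_LP 4, KO_LP 5 and WT_NP 1 for Gabarapl1 (346, 387 and 381 CPM).

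For the effect of low protein in KO mice, 0 of 10 members were called by edgeR's quasi-likelihood test at an adjusted p under 0.05, where 7.17% of the 15165 genes tested were called, 3.59% higher and 3.58% lower. The median log2 fold of the members was -0.0035, against 0.03 over all genes tested, with 5 members above 0 and 5 below. For the same diet in wild type mice, 0 of 10 members and 0% of all genes were called; 580 genes (3.82%), none of them a member, had an unadjusted p under 0.05, DESeq2 called 16 genes and voom with quality weights 6, again with no member among them. The difference of these diet effects, KO minus wild type, was called for 0 of 10 members and 0% of all genes, with 2430 genes, again no member, under an unadjusted p of 0.05 and 117 called by DESeq2. Between genotypes, KO against wild type, 0 of 10 members were called on low protein, where 2.93% of all genes were (1.35% higher and 1.59% lower in KO), and 0 of 10 on normal protein, where 0.574% were (0.343% higher and 0.231% lower). The comparisons share libraries: KO_LP enters 3 of them, so their values are not independent of each other.

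The intervals show how large a change these data leave room for. Of 50 results, 10 genes in 5 comparisons, 47 had a 95% interval within 1.5-fold in either direction, and 21 within 1.2-fold. The other 3 were all of Gabarapl1. For low protein in wild type, all 10 intervals were within 1.5-fold and the widest bounds over the members were folds of 0.818 and 1.27. Before adjustment, 3 of the 50 results had a p under 0.05: Gabarapl1 between genotypes on low protein, and Tfe3 and Atg5 for low protein in KO. For low protein in KO, 2 of 10 members were thus under that cut, against 27.9% of all genes tested. Between genotypes on low protein it was 1 of 10, against 21.1% of all genes. No member had groups that did not overlap in any of the 4 comparisons of groups; among all genes tested that share was 3.71% for low protein in KO, 0.29% for low protein in wild type, 2.27% for KO against wild type on low protein and 1.57% on normal protein.

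**Figure D3:**
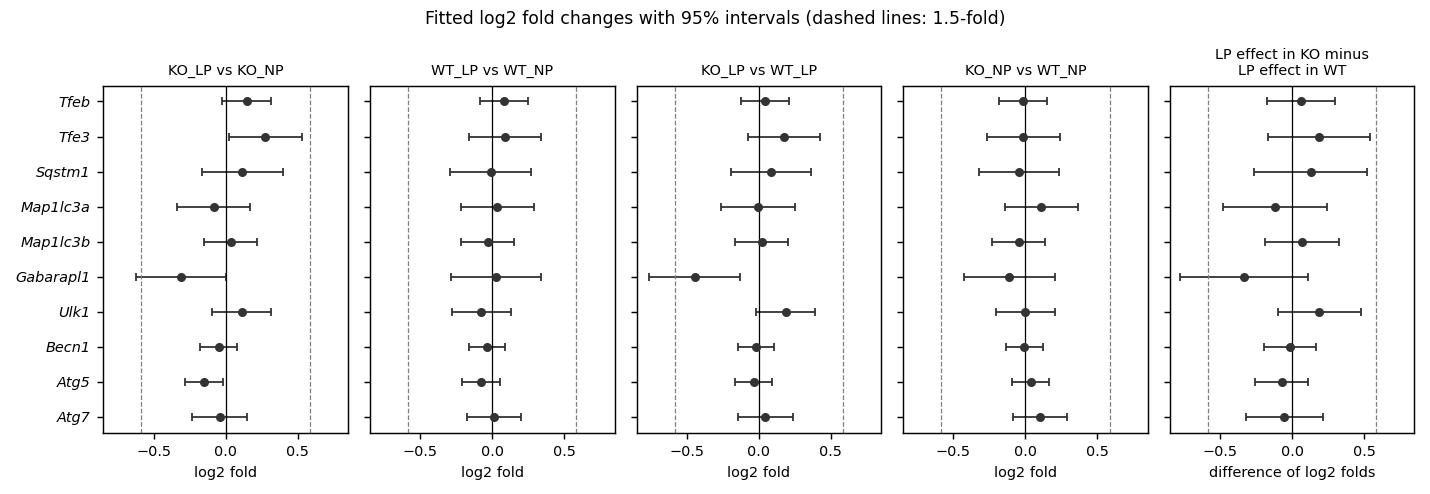
Fitted log2 fold of each gene with its 95% interval in the 5 comparisons, and dashed lines at 1.5-fold. 47 of the 50 intervals lie between the dashed lines, and the 3 that reach past them are Gabarapl1, lowest in KO_LP against WT_LP (-0.45).

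Tfeb encodes the main factor of the CLEAR network. Its levels (lowest, median and highest) were 8.66, 9.71 and 10.1 CPM in KO_LP, 7.79, 8.60 and 9.54 CPM in KO_NP, 8.49, 8.95 and 10.7 CPM in WT_LP, and 7.82, 8.81 and 9.34 CPM in WT_NP. All 6 KO_LP libraries were above the KO_NP mean, but the ranges overlapped, and by group mean the order was KO_LP, WT_LP, WT_NP, KO_NP. The fitted log2 fold for low protein was 0.15 ± 0.08 (SE) in KO (edgeR, adjusted p = 0.251) and 0.08 ± 0.08 in wild type (edgeR, adjusted p = 1.0). No neighbours in that order differed past the threshold in the comparisons that the design gives.

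Tfe3, which acts beside TFEB and is encoded on the X chromosome, had 13.2, 17.0 and 20.6 CPM (lowest, median and highest) in KO_LP and 12.4, 13.7 and 17.8 CPM in KO_NP. Wild type mice had 12.7, 14.5 and 18.7 CPM in WT_LP and 11.8, 14.6 and 17.6 CPM in WT_NP. 5 of 6 KO_LP libraries were above the KO_NP mean, while the top KO_NP library, KO_NP 1, reached into the KO_LP range. The log2 fold for low protein in KO was 0.27 ± 0.12 (95% interval 0.02 to 0.53; edgeR, adjusted p = 0.146), and 0.21 (adjusted p = 0.287) without KO_LP 6. In wild type it was 0.09 ± 0.12, and the difference of the 2 effects, 0.19 ± 0.17, was not called (edgeR, adjusted p = 0.610).

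Ulk1 encodes the kinase that starts autophagosome formation. It had 56.6, 66.9 and 95.8 CPM (lowest, median and highest) in KO_LP, 56.4, 65.7 and 74.9 CPM in KO_NP, 56.3, 62.4 and 71.4 CPM in WT_LP, and 61.6, 63.1 and 77.1 CPM in WT_NP. The medians lay close together and all ranges overlapped, with KO_LP 6 alone near the top. The log2 fold between genotypes on low protein was 0.19 ± 0.10 (edgeR, adjusted p = 0.280) and 0.08 without KO_LP 6, and for low protein in KO it was 0.11 ± 0.10 and 0.01 without that library.

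Becn1 encodes the scaffold of the class III PI3 kinase complex. Its group means were 84.6 ± 5.96 CPM in KO_LP, 87.5 ± 7.35 CPM in KO_NP, 85.8 ± 2.59 CPM in WT_LP and 87.9 ± 5.06 CPM in WT_NP (SD, n = 6 each). These means spanned 3.31 CPM, less than the SD of 3 of the groups. No log2 fold of Becn1 in the 5 comparisons was farther from 0 than -0.05, the value for low protein in KO (95% interval -0.18 to 0.08; edgeR, adjusted p = 0.635).

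Atg5, which forms the ligase for ATG8 lipidation together with ATG12 and ATG16L1, had 35.3, 40.2 and 44.7 CPM (lowest, median and highest) in KO_LP and 42.2, 44.1 and 47.1 CPM in KO_NP. In wild type it had 38.7, 41.6 and 42.5 CPM in WT_LP and 38.1, 43.3 and 48.2 CPM in WT_NP. In both genotypes the low protein libraries were mostly below the normal protein mean, 5 of 6 in KO and 6 of 6 in wild type, and the ranges overlapped in both. The log2 fold for low protein was -0.15 ± 0.06 in KO (95% interval -0.28 to -0.02; edgeR, adjusted p = 0.130) and -0.08 ± 0.06 in wild type (edgeR, adjusted p = 1.0). Without KO_LP 6 the value in KO was -0.12 (edgeR, adjusted p = 0.252). The lower bounds correspond to folds of 0.823 in KO and 0.866 in wild type.

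Atg7, the E1-like enzyme of both conjugation systems, had 15.6, 17.9 and 25.6 CPM (lowest, median and highest) in KO_LP, 17.7, 19.5 and 20.7 CPM in KO_NP, 17.5, 18.1 and 19.2 CPM in WT_LP, and 15.8, 17.9 and 19.7 CPM in WT_NP. KO_LP was the widest group, with the lowest and the highest library of all 24. The log2 fold for low protein in KO was -0.04 ± 0.09 (edgeR, adjusted p = 0.798) and, without KO_LP 6, -0.15 (edgeR, adjusted p = 0.179). In wild type it was 0.01 ± 0.09.

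Among the ATG8 genes, Map1lc3b and Map1lc3a encode LC3B and LC3A, the marker proteins of autophagosomes. Map1lc3b had 173, 189 and 242 CPM (lowest, median and highest) in KO_LP, 169, 193 and 218 CPM in KO_NP, 174, 189 and 224 CPM in WT_LP, and 178, 197 and 220 CPM in WT_NP. The medians of all 4 groups lay within the range of every group. Its log2 folds lay between -0.05 and 0.07 in the 5 comparisons, with adjusted p of 0.818 or above (edgeR).

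Map1lc3a had 63.7, 79.7 and 129 CPM (lowest, median and highest) in KO_LP, 80.6, 93.4 and 109 CPM in KO_NP, 71.9, 90.6 and 97.7 CPM in WT_LP, and 80.1, 85.5 and 89.6 CPM in WT_NP. KO_LP held both the lowest library of all, KO_LP 4, and the highest, KO_LP 6, and its coefficient of variation was 27.1%, against 4.01% in WT_NP. The log2 fold for low protein in KO was -0.08 ± 0.12 (edgeR, adjusted p = 0.691), and -0.23 without KO_LP 6 (edgeR, adjusted p = 0.156). KO_LP 4 had a macrophage marker sum of 5227 CPM and KO_LP 6 one of 1669 CPM, and their part in these levels was not tested.

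Gabarapl1, an ATG8 gene of the GABARAP branch, gave the widest spread of values between groups. The 6 KO_LP libraries had 346, 387, 477, 513, 583 and 626 CPM, and the 6 WT_LP libraries 485, 630, 675, 675, 743 and 788 CPM. On normal protein it had 529, 603 and 706 CPM (lowest, median and highest) in KO_NP and 381, 688 and 782 CPM in WT_NP. All 6 KO_LP libraries were below the WT_LP mean and 5 of 6 below the KO_NP mean, but the ranges overlapped, through WT_LP 3 on the wild type side and through KO_LP 1, KO_LP 2 and KO_LP 3 on the KO side. In WT_NP, WT_NP 1 lay between the 2 lowest KO_LP libraries.

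For KO against wild type on low protein, the log2 fold of Gabarapl1 was -0.45 ± 0.15 (95% interval -0.76 to -0.13, a fold of 0.734; edgeR, adjusted p = 0.101). It was called with voom and quality weights (log2 fold -0.45, adjusted p = 0.0409), which called 5.78% of all genes, without WT_LP 3 (-0.52, adjusted p = 0.0470 by edgeR), which called 4.81%, and without WT_NP 1 (-0.45, adjusted p = 0.0434 by edgeR), which called 4.65%. Low protein in KO gave -0.31 ± 0.15 (edgeR, adjusted p = 0.187), low protein in wild type 0.03 ± 0.15 and KO against wild type on normal protein -0.11 ± 0.15. The difference of the diet effects was -0.33 ± 0.22 (95% interval -0.78 to 0.11; edgeR, adjusted p = 0.446), so a dependence of the diet effect on FGF21 was not shown for this gene.

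The low Gabarapl1 values came with a low proximal tubule sum in several libraries. That sum was 5261 CPM in KO_LP 4 and 5976 CPM in WT_NP 1, where Gabarapl1 was 346 and 381 CPM, and 6011 CPM in WT_LP 3, the lowest WT_LP library for Gabarapl1 at 485 CPM. The macrophage sums of these 3 libraries, at 5227, 3792 and 2827 CPM, were among the 5 highest. WT_LP 4 had a macrophage sum of 2885 CPM, above that of WT_LP 3, and a proximal tubule sum of 6829 CPM. Its Gabarapl1 was nevertheless 675 CPM. In KO_LP 5, with 387 CPM of Gabarapl1, the proximal tubule sum was 7418 CPM. KO_LP 6 had the lowest proximal tubule sum, 4590 CPM, at 477 CPM of Gabarapl1. The part of these marker levels in the Gabarapl1 difference was not tested. With 1 surrogate variable in the fit the log2 fold of Gabarapl1 for low protein in KO was 0.04 (edgeR, adjusted p = 0.934) and the difference of the diet effects 0.04 (edgeR, adjusted p = 0.972), so both changed sign. Between genotypes on low protein the log2 fold was -0.21 with that variable (edgeR, adjusted p = 0.263), and without KO_LP 4, KO_LP 6 and WT_NP 1 together it was -0.34 (edgeR, adjusted p = 0.203).

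Sqstm1 encodes p62, the cargo receptor. It had 228, 283 and 526 CPM (lowest, median and highest) in KO_LP, 267, 293 and 314 CPM in KO_NP, 254, 307 and 346 CPM in WT_LP, and 263, 307 and 326 CPM in WT_NP. The medians were similar, and KO_LP had a coefficient of variation of 33.4%, against 5.66% in KO_NP, 12.0% in WT_LP and 7.92% in WT_NP. KO_LP 6 was far above the rest, the next library in its group being at 318 CPM. The log2 fold for low protein in KO was 0.12 ± 0.14 (edgeR, adjusted p = 0.607), and -0.09 without KO_LP 6 (edgeR, adjusted p = 0.574), so the sign of its group difference rests on 1 library. Between genotypes on low protein it was 0.08 ± 0.14, and -0.12 without KO_LP 6.

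Some members varied together from mouse to mouse within the groups. Over the 24 libraries, 45 pairs of members were compared by the correlation of their deviations from the group means, and 6 pairs had an adjusted permutation p under 0.05 by Pearson's r, all 6 positive. How often pairs drawn from all genes pass was not computed, so the count is not shown to be particular to these members. The part of differences in cell makeup between libraries was not tested. Map1lc3b and Gabarapl1 were the 1 pair that also passed by Spearman's rho (r = 0.61, permutation p = 0.0020, adjusted p = 0.0231; rho = 0.68, permutation p = 0.00045, adjusted p = 0.0203). Their r was 0.70 without the 2 libraries farthest from the median of Map1lc3b, KO_LP 6 and WT_LP 2. Mice with more Map1lc3b than their group mean thus tended to have more Gabarapl1 as well.

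The highest r was between Sqstm1 and Map1lc3a (r = 0.79, permutation p = 0.00124, adjusted p = 0.0231; rho = 0.60, permutation p = 0.00539, adjusted p = 0.0524). The r was 0.46 without KO_LP 4 and KO_LP 6. For Sqstm1 and Ulk1, r was 0.73 (permutation p = 0.00241, adjusted p = 0.0231) and rho 0.44 (permutation p = 0.0454, adjusted p = 0.186), with an r of 0.35 without the same 2 libraries, so this relation rests on them. The other 3 of the 6 pairs, Map1lc3a with Ulk1, Sqstm1 with Map1lc3b and Map1lc3b with Ulk1, had r of 0.71, 0.67 and 0.66, and 0.39, 0.47 and 0.42 without the 2 farthest libraries. For Sqstm1 and Gabarapl1, r was 0.41 (permutation p = 0.0868, adjusted p = 0.300; rho = 0.39, permutation p = 0.0778, adjusted p = 0.233) and 0.71 without KO_LP 6.

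The genes whose pattern over the 24 libraries was most like each member's were taken among the 10058 named genes that averaged 5 CPM or more, by Pearson's r of log2 CPM, and are given as a description: the libraries share their group, depth and cell makeup. For Gabarapl1 they were Marc2 (r = 0.93), Ddt (r = 0.92) and F13b (r = 0.89). For Sqstm1 they included Bnip3 (r = 0.88) and Mpp1 (r = 0.87). Bnip3 is a mitophagy receptor, and its r with Sqstm1 was 0.68 without KO_LP 6. For Map1lc3a the likest was Chpt1 (r = 0.91), for Map1lc3b Napa (r = 0.88), for Atg5 Gtf3c6 (r = 0.90), for Ulk1 Pllp (r = 0.84), for Becn1 Spag7 (r = 0.81), for Tfe3 Cpne8 (r = 0.79), for Atg7 Il17rc (r = 0.78) and for Tfeb Vamp5 (r = 0.65).

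The rest of the pathway was followed in 9 lists with 112 genes, of which 109 could be tested. With low protein in KO mice, 4 of 109 were called (3.67%, against 7.17% of all genes), 1 higher and 3 lower, and the median log2 fold of the 109 was -0.05. For KO against wild type on low protein, 2 of 109 were called (1.83%, against 2.93% of all genes), both higher in KO. For low protein in wild type and for the difference of the diet effects, the main edgeR test called 0 of 109. It also called 0 of 109 for KO against wild type on normal protein. In these comparisons, in that order, 4, 14 and 11 of the 109 had an unadjusted p under 0.05 (edgeR). Of all 15165 genes tested, 580, 2430 and 1915 were under that cut. The shares of the 109 were thus no higher than those of all genes. From the ATG8 conjugation list, DESeq2 called Atg4d in the difference, and both DESeq2 and edgeR on the compared libraries alone called Atg10 on normal protein. Of all genes, DESeq2 called 117 in the difference. On normal protein DESeq2 called 246 and the compared libraries alone 102, against 87 in the main test.

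Of the calls for low protein in KO, 2 were lysosomal genes of the CLEAR network, where 0 of 28 were called higher and 2 of 28 lower, against 3.59% and 3.58% of all genes. Both directions together, the list's share lay near the 7.17% of all genes. Neu1, the lysosomal sialidase, had 208, 295 and 336 CPM (lowest, median and highest) in KO_LP and 341, 385 and 464 CPM in KO_NP, so that the ranges did not overlap. It fell by 0.47 on the log2 scale (SE 0.14; edgeR, adjusted p = 0.0420). Atp6v1a, the catalytic subunit of the proton pump that acidifies lysosomes and also the tubule surface, had 564, 659 and 791 CPM in KO_LP and 772, 844 and 943 CPM in KO_NP. It was below the KO_NP mean in 6 of 6 KO_LP libraries, with overlapping ranges, and fell by 0.33 (SE 0.10; edgeR, adjusted p = 0.0474). The difference of the diet effects was not called for either gene (edgeR, adjusted p = 0.376 for Neu1 and 0.347 for Atp6v1a). Neu1 averaged 298 ± 45.8 CPM in WT_LP and 324 ± 68.1 CPM in WT_NP, and Atp6v1a 692 ± 82.5 and 721 ± 94.5 CPM (SD, n = 6 each). KO_NP had the highest mean for both genes, 390 CPM for Neu1 and 846 CPM for Atp6v1a. Against WT_NP it was not called (edgeR, adjusted p = 0.428 and 0.337). KO against wild type on low protein gave log2 folds of -0.08 and -0.04.

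The other 2 calls for low protein in KO belong to the phosphoinositide step of autophagosome formation. Uvrag, a subunit of one form of the class III PI3 kinase complex, had 24.2, 25.3 and 29.3 CPM (lowest, median and highest) in KO_LP and 19.4, 21.1 and 24.03 CPM in KO_NP, without overlap, and rose by 0.27 (SE 0.08; edgeR, adjusted p = 0.0415). Its level in WT_LP was 26.7 ± 2.64 CPM and in WT_NP 26.1 ± 2.07 CPM (SD, n = 6 each), so KO_NP was the low group. Wipi2, which binds the lipid product and recruits ATG16L1, had 54.4, 66.4 and 69.0 CPM in KO_LP and 71.0, 77.0 and 81.3 CPM in KO_NP, also without overlap, and fell by 0.27 (SE 0.08; edgeR, adjusted p = 0.0438). Its difference of diet effects was -0.32 ± 0.11 (edgeR, adjusted p = 0.220). Each of these 4 calls was lost without KO_LP 4, without KO_LP 6 and with 1 surrogate variable, where the calls over all genes numbered 136, 466 and 4, and without KO_LP 4, KO_LP 6 and WT_NP 1 together. With 1 surrogate variable the log2 folds were 0.17 for Uvrag, -0.13 for Wipi2, -0.18 for Neu1 and -0.16 for Atp6v1a, and without the 3 libraries 0.24, -0.18, -0.31 and -0.24. Uvrag and Atp6v1a were also lost in the fit of the compared libraries alone, and Atp6v1a with no low count filter. The highest adjusted p over the alternatives was 0.451 for Uvrag, 0.546 for Wipi2, 0.552 for Neu1 and 0.518 for Atp6v1a. All 4 were also lost without KO_LP 5, KO_NP 1 or KO_NP 4. Uvrag was further lost without KO_LP 3, KO_NP 3 or KO_NP 5, Neu1 without KO_NP 2, KO_NP 5 or KO_NP 6, and Wipi2 without any other KO_NP library, WT_LP 1 or WT_LP 5. Atp6v1a was called in 8 of the 24 fits that left out 1 library.

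Between genotypes on low protein, Stbd1, a receptor for glycogen, had 6.80, 7.99 and 11.2 CPM (lowest, median and highest) in KO_LP and 3.15, 5.66 and 6.68 CPM in WT_LP, without overlap, and rose by 0.69 (SE 0.18; edgeR, adjusted p = 0.0333). Vps16, a core subunit of the HOPS complex that tethers autophagosomes to lysosomes, had 16.1, 18.1 and 22.3 CPM in KO_LP and 12.7, 15.1 and 16.5 CPM in WT_LP, with overlapping ranges, and rose by 0.32 (SE 0.08; edgeR, adjusted p = 0.0342). Stbd1 was lost without KO_LP 4, KO_LP 5, WT_LP 4 or WT_LP 6, and Vps16 without KO_LP 2, KO_LP 3, KO_LP 4, WT_LP 1 or WT_LP 5. Both were lost with 1 surrogate variable, in the fit of the compared libraries alone and without KO_LP 4, KO_LP 6 and WT_NP 1 together. Over all alternatives the log2 fold of Stbd1 ran from 0.57 to 0.76 and that of Vps16 from 0.26 to 0.36, with adjusted p up to 0.0984 for Stbd1 and 0.146 for Vps16.

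Several further genes of these lists missed the threshold in the main edgeR test and were called under some alternatives. Gabarap, which gave the GABARAP branch its name, averaged 169 ± 9.08 CPM in KO_LP and 194 ± 9.41 CPM in WT_LP (SD, n = 6 each), without overlap (log2 fold -0.20, edgeR, adjusted p = 0.0684). It was called in 2 of 9 alternatives, voom with quality weights and DESeq2, and without KO_LP 1, WT_LP 3 or WT_NP 1 (adjusted p between 0.0107 and 0.168 over all of them). Of all genes, voom called 877 in this comparison and DESeq2 910, against 445 in the main test. The fits without KO_LP 1, WT_LP 3 and WT_NP 1 called 658, 733 and 708. Atg4d, a protease that processes ATG8 proteins, averaged 15.3 ± 2.29 CPM in KO_LP and 19.8 ± 1.88 CPM in WT_LP (log2 fold -0.37, edgeR, adjusted p = 0.0559), and its difference of diet effects was -0.58 ± 0.15 (edgeR, adjusted p = 0.158). On low protein it was called by DESeq2, by limma on the normalized values and without KO_LP 2, WT_LP 4 or WT_NP 1 (adjusted p between 0.0216 and 0.176). Of all genes, limma on the normalized values called 437 there. The fits without KO_LP 2 and without WT_LP 4 called 361 and 393. Atg10, the E2-like enzyme for ATG12, averaged 15.8 ± 2.13 CPM in KO_LP and 19.5 ± 1.27 CPM in KO_NP, without overlap (log2 fold -0.30, edgeR, adjusted p = 0.0515), and against the 15.1 ± 1.35 CPM of WT_NP the KO_NP level gave a log2 fold of 0.36 (edgeR, adjusted p = 0.0784). For low protein in KO it was called in 5 of 9 alternatives and in 6 of 24 fits that left out 1 library, those without KO_LP 1, KO_LP 2, WT_LP 3, WT_LP 4, WT_LP 5 or WT_NP 1. Its log2 fold over all of them ran from -0.35 to -0.14, with adjusted p between 0.0240 and 0.589. For low protein in KO the main test called 1087 of all genes, voom 1693 and DESeq2 1846. DESeq2 size factors gave 1063, limma on the normalized values 1034 and the 5 CPM filter 1147. The 6 fits with 1 library left out called from 877, without KO_LP 2, to 2006, without KO_LP 1.

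Of 16 genes of the MiT/TFE factors and their control, 0 were called by the main edgeR test in each comparison. Fnip2, a partner of folliculin that controls the access of TFEB and TFE3 to mTORC1, had the smallest p there for low protein in KO, with 40.5 ± 3.40 CPM in KO_LP and 50.3 ± 5.99 CPM in KO_NP (SD, n = 6 each; log2 fold -0.31, edgeR, adjusted p = 0.0696). It was called by edgeR on the compared libraries alone, by DESeq2 and without WT_NP 1, and its log2 fold over the alternatives ran from -0.36 to -0.08, with adjusted p between 0.0404 and 0.770. Those fits called 1107, 1846 and 1759 of all genes, against 1087 in the main test. Foxo3, a starvation-responsive factor for autophagy genes, averaged 56.5 ± 9.10 CPM in KO_NP and 78.3 ± 20.2 CPM in WT_NP (log2 fold -0.47, edgeR, adjusted p = 0.137). Among 4 further genes of the ULK complex, 0 were called, and Atg13 gave the smallest p, with a log2 fold of -0.23 for KO against wild type on low protein (edgeR, adjusted p = 0.107).

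Markers of other cells were tested in the same comparisons as the pathway genes. With low protein in KO, 2 of 13 proximal tubule markers were called lower (median log2 fold -0.37), where 3.58% of all genes were. In the same comparison 6 of 17 macrophage and dendritic cell markers (median 0.94) and 1 of 14 tested lymphocyte and plasma cell markers (median 1.28) were called higher, where 3.59% of all genes were. For KO against wild type on low protein, 0 of 13, 0 of 17 and 3 of 14 were called, against 2.93% of all genes, with median log2 folds of -0.39, 0.36 and 1.26. The marker lists had been planned as a description with no test, and how their calls hold under the alternatives is not given here. For low protein in KO, the calls over all genes numbered 136 without KO_LP 4 and 4 with 1 surrogate variable. The part of these cell types in the autophagy and lysosome values was not tested.

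**Figure D4:**
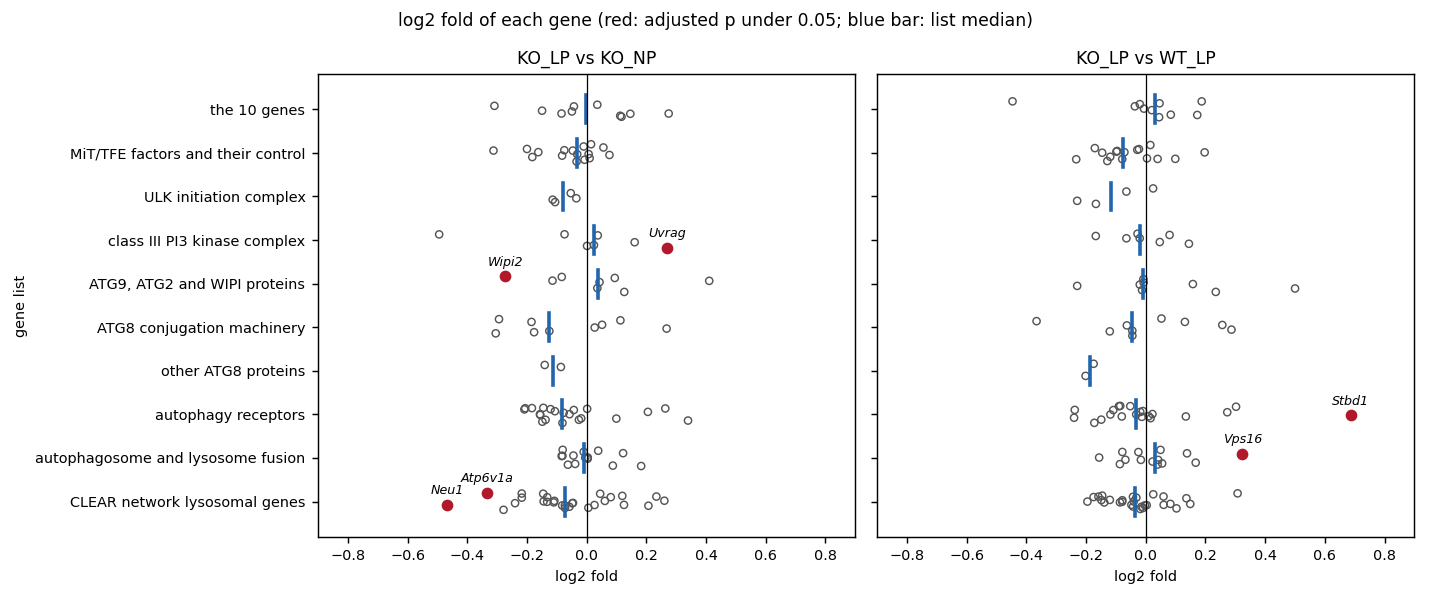
Log2 fold of each gene of the 10-gene group and the 9 pathway lists (rows) for low protein in KO (left) and for KO against wild type on low protein (right), with genes called by edgeR in red and list medians as blue bars. The medians lie between -0.19 and 0.04, and 6 genes are called, Uvrag, Wipi2, Neu1 and Atp6v1a on the left and Stbd1 and Vps16 on the right.

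The 3' tags of 4 members could include reads of a gene on the opposite strand that overlaps them, since the counting strand is not given in the sources used here: Mrnip for Sqstm1 (11.7 CPM on average), Zcchc14 for Map1lc3b (22.0 CPM), Cntd1 for Becn1 (3.23 CPM) and a RIKEN gene for Gabarapl1 (1.88 CPM). The members themselves averaged 303 CPM for Sqstm1, 194 CPM for Map1lc3b, 86.5 CPM for Becn1 and 604 CPM for Gabarapl1. Genes on the same strand also overlap some members: Gm44243 for Gabarapl1, Gm20388 for Map1lc3b, Gm19040, Gm44332 and Gm44331 for Atg7, and Mir1929 for Atg5. They were not among the 16921 genes, so their levels are not known, and the effect of such overlaps on the counts was not tested.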

How the data were processed

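For 24 kidney cortex libraries the authors deposited raw counts of reads for each gene. They also deposited a normalized signal, which was found to be each count divided by a constant of its library. The submitters' processing notes name the build GRCm38 and the tool DESeq2 1.22.2; aligner and counter: not given in the sources used. No gene had a mean count under 3. Raw counts were tested in R 4.3.3 with edgeR 4.0.16: filterByExpr on the 4 groups (15165 genes tested, 1756 below the filter), TMM factors, a robust quasi-likelihood fit with 4 group means, two-sided tests and Benjamini-Hochberg adjustment over all genes tested, with a gene called at an adjusted p under 0.05. CPM use the TMM factors, and the biological coefficient of variation was 19.6%. The SE of a log2 fold was approximated as its absolute value over the square root of the quasi-likelihood F statistic. The 95% intervals are this SE times a quantile of the t distribution, on either side of the log2 fold. On simulated counts for low protein in KO (15165 genes), 45% of 100 genes changed 1.5-fold and 72% of 100 changed 2-fold were called, with 4 unchanged genes. All other genes were simulated without a change, whereas 1087 were called in the data. The changed genes were drawn from all genes tested. These percentages therefore do not give the share of such changes that would be called among the members.

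Correlations of members used deviations from group means and 100000 permutations within groups. The alternatives were DESeq2 size factors, no low count filter, a filter of 5 CPM in 6 libraries, fits of the compared libraries alone, limma 3.58.1 voom with quality weights, the DESeq2 1.42.0 Wald test, limma after log2 of the normalized signal plus 1, 1 surrogate variable from sva 3.50.0, WT_NP 1, KO_LP 4 and KO_LP 6 left out together, and each library left out in turn; correlations without KO_LP 6 or without the 2 farthest libraries were added after seeing the data. The 10 genes, the pathway and marker lists and the tests were chosen with earlier results of these data known. From each pathway list the text names the called genes with the smallest p, at most 4, or otherwise the 1 gene with the smallest p; not all of these are described. One gene among those most like Sqstm1 is not reported here. The labels name no batch, so batches and groups cannot be told apart. Gene positions came from GENCODE M21 and promoter windows from RefSeq (GRCm38.p6). Python 3.11.15 with pandas 2.3.3, numpy 2.4.6, scipy 1.17.1 and matplotlib 3.10.9 made tables and figures.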

Additional observations from a re-analysis of the deposited data

Results flagged for a closer look

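In 4 of 40 sets of 6 libraries (10 genes in 4 groups), 1 library was separated from the other 5 by a share of the group's range above the 95% critical value of Dixon's test. For normally distributed values, chance alone gives about 1 in 20. The 40 sets share the same libraries, and the share flagged over all genes was not computed. Sqstm1 was 525.7 CPM in KO_LP 6, against 228 to 318 CPM in the other KO_LP libraries. Tfe3 was 17.77 CPM in KO_NP 1, against 12.4 to 13.9 CPM in the other KO_NP libraries. Atg7 was 19.18 CPM in WT_LP 4, against 17.49 to 18.11 CPM in the other WT_LP libraries. Gabarapl1 was 381.4 CPM in WT_NP 1, against 655 to 782 CPM in the other WT_NP libraries.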

How the results depend on the processing

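No paired analysis was possible because the labels give the libraries no replicate numbers. For KO against wild type on low protein, 0 of 10 members were called, and 1, Gabarapl1, with voom and quality weights; leaving out 1 library at a time gave 0 to 1, the 1 without WT_LP 3 or WT_NP 1. In the other 4 comparisons 0 members were called under every alternative run. Of 440 log2 folds of members under the 9 alternatives that change the method or leave out 3 libraries together, 41 changed sign, and of 1200 with 1 library left out, 57 did; none of these was called either way, and the cause was not tested. In the comparison of KO against wild type on low protein, the changed values were with 1 surrogate variable 0.011 for Atg5, 0.034 for Becn1 and 0.11 for Map1lc3a. With WT_NP 1, KO_LP 4 and KO_LP 6 left out they were 0.014 for Atg5, -0.070 for Atg7, -0.024 for Map1lc3b and -0.058 for Sqstm1. With the filter of 5 CPM in 6 libraries they were 0.0062 for Map1lc3a. With voom and quality weights they were -0.045 for Atg7, -0.027 for Map1lc3b and -0.053 for Sqstm1. In the comparison of KO against wild type on normal protein, the changed values were with 1 surrogate variable 0.057 for Tfe3. With DESeq2 they were 0.0019 for Becn1 and 0.0061 for Ulk1. With DESeq2 size factors they were 0.0017 for Becn1 and 0.0062 for Ulk1. With WT_NP 1, KO_LP 4 and KO_LP 6 left out they were 0.060 for Tfe3. With limma on the normalized values they were 0.0056 for Ulk1. With voom and quality weights they were 0.050 for Tfe3 and 0.013 for Ulk1. With no low count filter they were 0.0006 for Ulk1. With only the compared libraries they were 0.0063 for Becn1 and 0.011 for Ulk1. In the comparison of low protein in KO, the changed values were with 1 surrogate variable 0.0007 for Atg7, 0.035 for Becn1, 0.035 for Gabarapl1 and 0.095 for Map1lc3a. With WT_NP 1, KO_LP 4 and KO_LP 6 left out they were -0.011 for Map1lc3b and -0.028 for Sqstm1. With voom and quality weights they were -0.036 for Sqstm1. In the comparison of low protein in wild type, the changed values were with 1 surrogate variable -0.0003 for Gabarapl1. With WT_NP 1, KO_LP 4 and KO_LP 6 left out they were -0.088 for Gabarapl1. With voom and quality weights they were -0.022 for Gabarapl1. In the difference of the diet effects, the changed values were with 1 surrogate variable 0.0037 for Atg5, 0.077 for Becn1, 0.036 for Gabarapl1 and 0.090 for Map1lc3a. With WT_NP 1, KO_LP 4 and KO_LP 6 left out they were 0.015 for Becn1 and -0.0044 for Tfe3. With the filter of 5 CPM in 6 libraries they were 0.0006 for Becn1. With voom and quality weights they were -0.0072 for Sqstm1. With 1 library left out, the results that changed sign had the following lowest and highest log2 folds. The ranges for KO against wild type on low protein were -0.066 to 0.093 for Atg7, -0.15 to 0.071 for Map1lc3a, -0.050 to 0.066 for Map1lc3b and -0.12 to 0.16 for Sqstm1. The ranges for low protein in KO were -0.15 to 0.0041 for Atg7, -0.035 to 0.076 for Map1lc3b and -0.087 to 0.20 for Sqstm1. The ranges for low protein in wild type were -0.023 to 0.039 for Atg7, -0.090 to 0.10 for Gabarapl1, -0.0002 to 0.085 for Map1lc3a, -0.078 to 0.0013 for Map1lc3b and -0.056 to 0.032 for Sqstm1. The ranges for KO against wild type on normal protein were -0.040 to 0.035 for Becn1, -0.090 to 0.055 for Tfe3, -0.050 to 0.010 for Tfeb and -0.041 to 0.052 for Ulk1. The ranges for the difference of the diet effects were -0.061 to 0.020 for Becn1, -0.0035 to 0.11 for Map1lc3b and -0.075 to 0.21 for Sqstm1. The smallest count of a member was 82; how depth affects these results was not tested by thinning.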
